A study of Mus musculus with 2 samples.

Results

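The genes described here are Il10, the receptor genes Il10ra and Il10rb, and Socs3, 4 of the 27998 genes counted in CD45+ cells from mouse tumors. They were taken by symbol, all 4 were found in both count tables, and none of them served in the gates that define the cell groups. Their values were followed across the libraries and across cell groups gated on UMIs (unique molecular identifiers, 1 per captured transcript) of other marker genes.

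IL-10 is a cytokine made by macrophages and by some T cells, and it restrains the inflammatory output of the cells that bind it. It signals through a receptor of 2 chains: IL10RA binds the cytokine, and IL10RB is an accessory chain that is shared with the receptors for IL-22 and the type III interferons. The receptor activates JAK1, TYK2 and STAT3, and SOCS3, which STAT3 induces, blocks signaling by receptors of the IL-6 type while leaving that of the IL-10 receptor largely intact. Socs3 transcription also answers to many other cytokines.

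The study compared 2 groups, each a single library made from 3 pooled BALB/c mice. All mice carried tumors grown under the skin from TSA cells, a BALB/c mammary carcinoma line, and CD45+ leukocytes were collected from the dissociated tumors on magnetic beads. One group was left untreated and the other drank water with 0.5% nicotinamide (NAM, a form of vitamin B3) for 10 days. With 1 library per group there is no replicate: NAM and other differences between the pools cannot be told apart, no test between groups was possible, and every interval below is a 95% interval that covers counting error only. The line, the site of injection and the pooling limit both groups as models of breast cancer in an individual animal.

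The untreated library held 2922 cells and 29161823 UMIs, the NAM library 3276 cells and 32090120 UMIs, with medians of 9056 and 9128 UMIs per cell, and 11 barcodes occurred in both. C1q macrophages, gated on at least 10 UMIs of C1qa, C1qb and C1qc, made up 71.6% and 70.2% of the cells. The 11 macrophage markers, 3 of which define that gate, were all detected there and summed to 34885 and 35815 CPM (UMIs per 1000000 UMIs of the group), against 7491 and 7876 CPM in Ly6c2 monocytes. The 7 monocyte markers, one of them the gate gene itself, summed to 8658 and 9250 CPM in the monocytes and to 362 and 343 CPM in the macrophages. T cells numbered 210 and 272, NK cells 66 and 34, and dendritic cells 73 and 82, and the bead selection and dissociation set which cells could be seen. Hemoglobin transcripts summed to 15.6 CPM without treatment and 526 CPM with NAM, and among the main gates they were highest with NAM in Ly6c2 monocytes (19.1 and 4508 CPM) and T cells (15.5 and 3315 CPM).

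All 4 genes are protein coding in GENCODE vM21 (GRCm38, mm10), whose models may differ from those the reads were counted on. Il10 has 5 exons on the plus strand of chromosome 1 (131019845 to 131024974). Il10ra has 7 exons on the minus strand of chromosome 9 (45253837 to 45269149). Il10rb has 7 exons on the plus strand of chromosome 16 (91406164 to 91425834), where the gene model Gm21970 overlaps it on the same strand and had 0 UMIs in both libraries, so shared reads may have been lost. Socs3 has 2 exons on the minus strand of chromosome 11 (117966079 to 117970047).

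Because Socs3 is a STAT3 target, the RefSeq promoter sequences (GRCm38.p6, 250 bases before to 50 after a start site), in which 1 of the 4 genes was matched, were searched for TTCNNNGAA, the core of a STAT site. The Socs3 window held 1 match, 154 to 146 bases before the RefSeq start, and 8.30% of 32851 promoters of the same length hold at least 1. The motif reads the same on both strands. The match is shown in capitals with 40 bases on each side, 5′ to 3′ on the minus strand, chr11:117969472-117969560.
Socs3: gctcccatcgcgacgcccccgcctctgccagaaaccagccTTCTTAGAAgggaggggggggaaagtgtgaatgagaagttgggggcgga
The RefSeq window lies 131 to 430 bases upstream of the start of the principal GENCODE transcript. No binding was measured, so the match describes the sequence alone.

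Most Il10 transcripts came from macrophages, and they were less abundant in the NAM library. Over all cells the untreated library held 1854 Il10 UMIs (63.6 CPM, 60.7 to 66.5) and the NAM library 719 (22.4 CPM, 20.8 to 24.1), a log2 ratio of -1.5 (-1.63 to -1.38). C1q macrophages supplied 88.1% of these UMIs without treatment and 86.1% with NAM, from 71.6% and 70.2% of the cells, and 81.3% to 85.0% of the UMIs of the other 3 genes. In C1q macrophages the level was 72.8 CPM (69.3 to 76.4; 1633 UMIs) without treatment and 25.3 CPM (23.3 to 27.3; 619 UMIs) with NAM, 2.88-fold lower and a log2 ratio of -1.53 (-1.66 to -1.39). In Ly6c2 monocytes it was 58.2 CPM (44.8 to 74.3; 64 UMIs) and 18.7 CPM (11.6 to 28.5; 21 UMIs), a log2 ratio of -1.64 (-2.43 to -0.91).

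**Figure D1:**
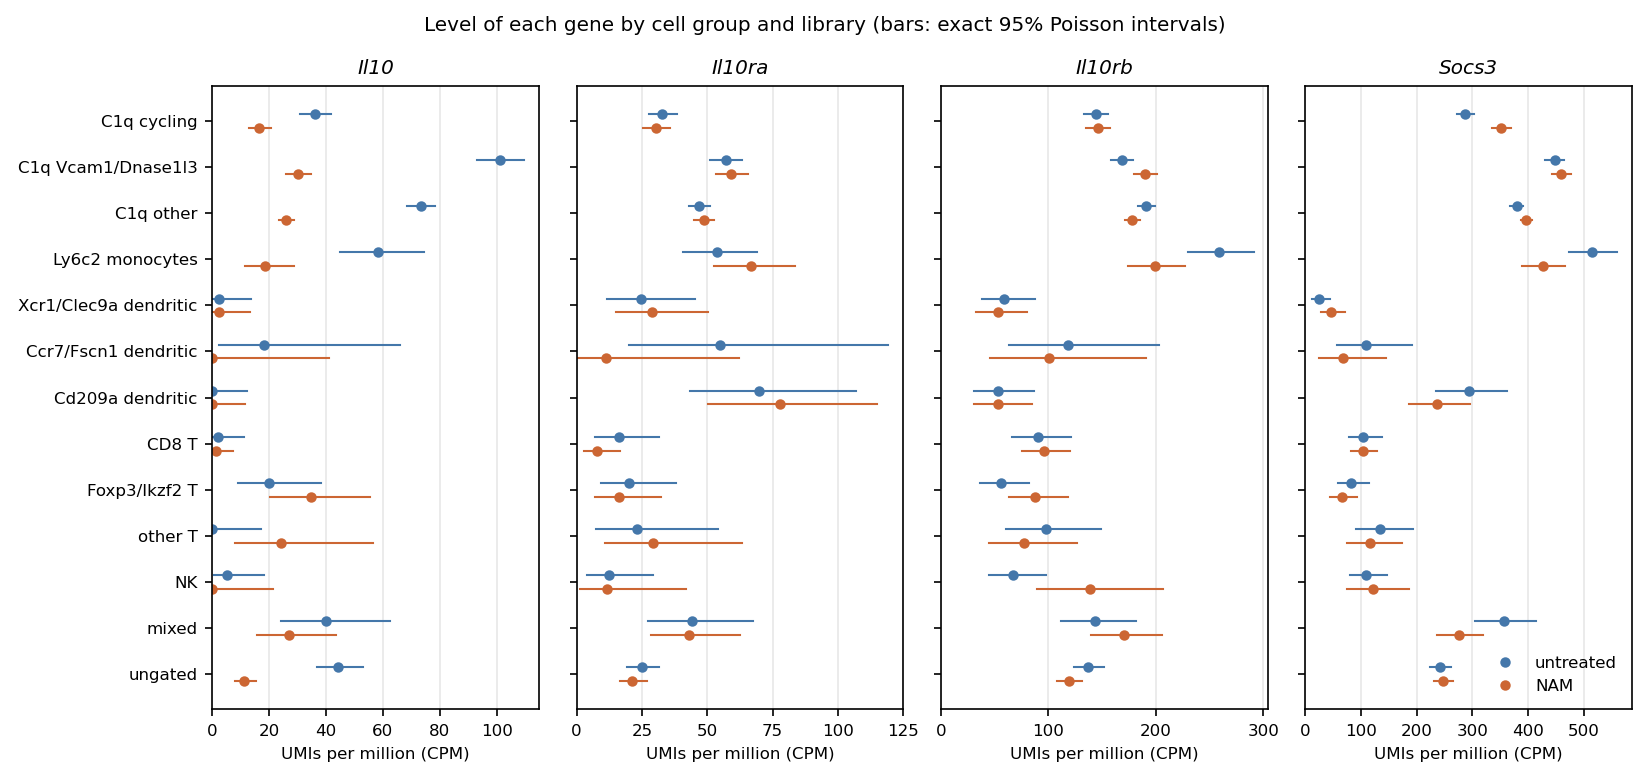
Level of each gene (x axis, CPM) in each cell group (y axis) of the untreated (blue) and NAM (orange) library, with exact 95% Poisson intervals as bars; scales differ between panels and are not comparable between genes. Il10 is lower with NAM in the 3 C1q subsets, from 101 to 30.1 CPM in the Vcam1/Dnase1l3 subset, while Il10ra and Il10rb overlap between libraries in most groups.

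Among the 9915 genes with at least 100 UMIs in C1q macrophages, 27 (0.272%) had a lower ratio than Il10. Of the 4 genes, Il10 alone was 1.5-fold or more lower there, a size reached by 3.97% of all genes, and none was 1.5-fold or more higher, against 1.11%. Over all cells the same held for Il10, against 3.87% of 10570 genes lower and 1.03% higher. The median log2 ratio of all genes in C1q macrophages was -0.04, and with median-of-ratios scaling the Il10 value was -1.49.

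**Figure D2:**
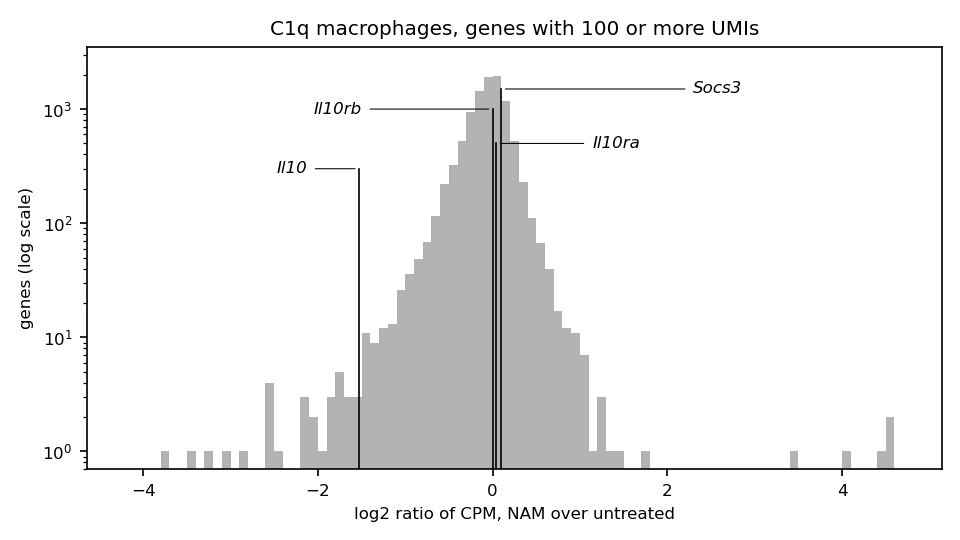
Number of genes (y axis, log scale) by log2 ratio of CPM, NAM over untreated (x axis), for the 9915 genes with 100 or more UMIs in C1q macrophages, with black lines at the 4 genes. Il10 (-1.53) sits in the lower tail, and Il10ra (0.04), Il10rb (0.002) and Socs3 (0.10) lie in the bulk; the Socs3 value is 0.03 on UMIs thinned to equal depth in the same cells.

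The C1q macrophages were split into cycling cells (3 or more UMIs of Top2a, Birc5 and Ube2c), the remaining cells with 3 or more UMIs of Vcam1 and Dnase1l3, and all others. Without treatment Il10 was most abundant in the Vcam1/Dnase1l3 subset, at 101 CPM (93.2 to 109, from 606 UMIs in 568 cells), above the other C1q macrophages at 73.3 CPM (68.5 to 78.4, from 854 UMIs in 1213 cells). Cycling macrophages were lowest, at 36.1 CPM (30.9 to 41.9, from 173 UMIs in 311 cells). No interval of the 3 overlapped another.

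With NAM the first 2 subsets no longer lay apart. The Vcam1/Dnase1l3 subset stood at 30.1 CPM (26.0 to 34.7, from 188 UMIs in 594 cells), a log2 ratio of -1.75 (-1.99 to -1.51), and its interval overlapped that of the other C1q macrophages at 26.0 CPM (23.4 to 28.9, from 356 UMIs in 1404 cells), where the log2 ratio was -1.5 (-1.68 to -1.32). Cycling macrophages stood at 16.4 CPM (12.9 to 20.6, from 75 UMIs in 302 cells), a log2 ratio of -1.13 (-1.54 to -0.73). Thus Il10 was lower in 3 of 3 C1q subsets, each with an interval that left out 0. Giving the 3 subsets the same shares in both libraries gave a log2 ratio of -1.54. With NAM 12.6% of cycling macrophages held an Il10 UMI, against 12.1% of the other C1q macrophages. After thinning to equal depth it was 3.97% against 6.13%, and both pairs had overlapping intervals.

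Outside the macrophages and monocytes most Il10 UMIs lay in cells without a gate of their own. Ungated cells, which passed no gate, held 123 and 38 UMIs, or 44.3 and 11.3 CPM, with a log2 ratio of -1.98 (-2.54 to -1.44). Mixed cells, which passed both a macrophage and a lymphocyte gate, held 19 UMIs in 38 cells and 17 UMIs in 53 cells, or 40.1 CPM (24.1 to 62.6) and 27.1 CPM (15.8 to 43.4). Foxp3/Ikzf2 T cells, a gate built on regulatory T cell genes, held 9 UMIs in 6 of 78 cells without treatment and 17 UMIs in 5 of 82 cells with NAM, or 20.1 and 34.7 CPM, and the log2 ratio of 0.79 (-0.46 to 2.14) did not leave out 0. CD8 T cells held 1 UMI in each library. NK cells held 2 and 0, where 0 of 34 cells allows a share of cells with a UMI of up to 10.3% (Clopper-Pearson), which is no limit on cells that express the gene. Among dendritic cells 3 UMIs were found without treatment and 1 with NAM, and Cd209a dendritic cells held none in 34 and 39 cells. Of the 13 finest groups 10 were lower with NAM and 2 higher, and the interval left out 0 in 5 of those lower and in none of those higher.

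The lower level of Il10 in C1q macrophages went with fewer positive cells and with fewer UMIs in each. At least 1 Il10 UMI was found in 547 of 2092 cells without treatment, a share of 26.1% (24.3 to 28.1), and in 288 of 2300 cells with NAM, 12.5% (11.2 to 13.9), a log2 ratio of shares of -1.06 (-1.27 to -0.85). As a rough measure of stray RNA, CD8 T cells had a share of 1.05% (0.03 to 5.73) and 0.680% (0.02 to 3.73). That is 1 of 95 and 1 of 147 cells, which cannot tell stray RNA from expression. Their median depth was lower, 4424 and 4498 UMIs against 9896 and 9871.5 in C1q macrophages. After each cell had been thinned to 3000 UMIs, which left out no cell, the shares in C1q macrophages were 14.0% (12.5 to 15.5) and 5.83% (4.90 to 6.86).

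A positive macrophage held on average 2.99 Il10 UMIs without treatment and 2.15 with NAM, with medians of 2 and 1 and a log2 ratio of means of -0.47. Cells with more than 10 Il10 UMIs numbered 22 without treatment and 3 with NAM, and they held 22.5% and 7.75% of the Il10 UMIs of C1q macrophages. The 5 highest cells held 8.08% and 10.8%, and leaving them out of each library gave a log2 ratio of -1.57.

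**Figure D3:**
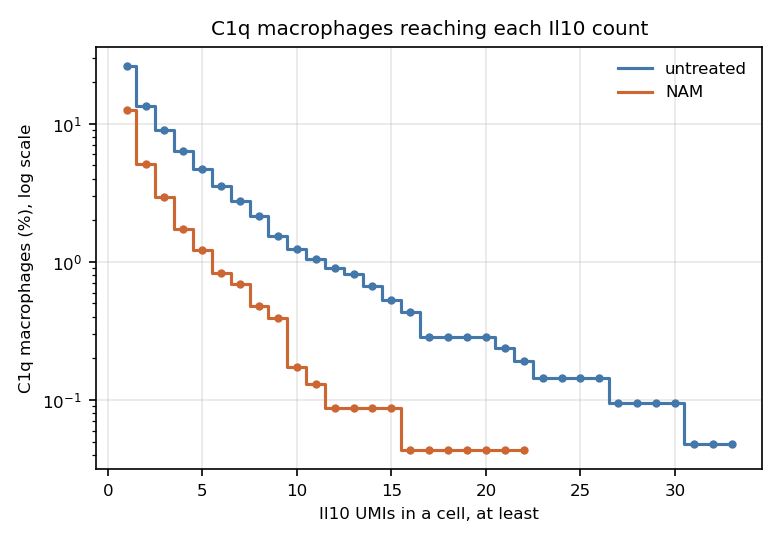
Percent of C1q macrophages (y axis, log scale) that held at least a given number of Il10 UMIs (x axis) in the untreated (blue) and NAM (orange) library. The curves start at 26.1% and 12.5% for 1 UMI and reach a maximum of 33 and 22 UMIs in a cell.

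Splitting C1q macrophages into 4 depth bins of about equal size by total UMIs gave a lower Il10 share with NAM in each. In the shallowest bin it was 21.3% (17.8 to 25) and 8.93% (6.72 to 11.6), and in the deepest 27.5% (23.8 to 31.6) and 13.6% (10.8 to 16.6). As a level, Il10 of the untreated library was 139 CPM (126 to 154) in the shallowest bin and 38.4 CPM (34.5 to 42.6) in the deepest. With NAM those bins stood at 25.6 CPM (20.3 to 31.8) and 16.0 CPM (13.6 to 18.7), so the libraries lay farther apart in the cells with little RNA.

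In Ly6c2 monocytes 23 of 173 cells (13.3%, 8.62 to 19.3) and 12 of 198 cells (6.06%, 3.17 to 10.3) held an Il10 UMI, with means of 2.78 and 1.75 UMIs per positive cell. The 5 highest cells held 50% of the UMIs without treatment and 66.7% with NAM, so these levels rest on few cells.

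**Figure D4:**
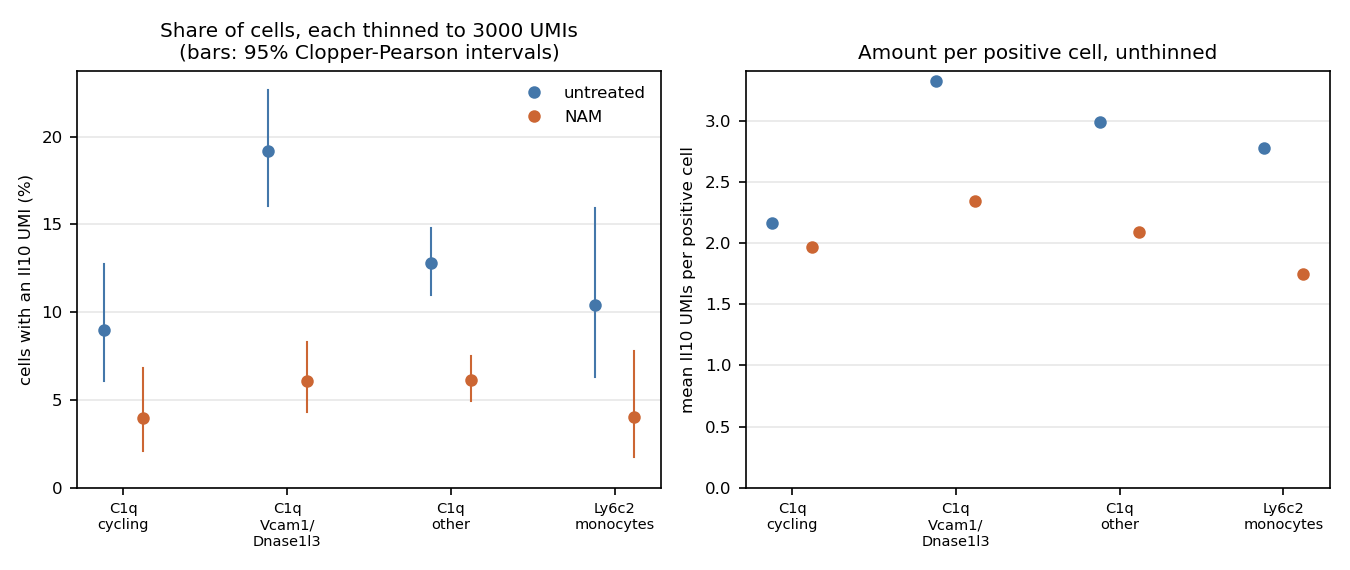
Left, percent of cells with an Il10 UMI (y axis) after thinning to 3000 UMIs, with 95% Clopper-Pearson intervals; right, mean Il10 UMIs per positive cell (y axis, no error shown), in 3 C1q subsets and Ly6c2 monocytes (x axis) of the untreated (blue) and NAM (orange) library. The share in the Vcam1/Dnase1l3 subset is 19.2% without treatment and 6.06% with NAM, and the mean amount per positive cell there is 3.33 and 2.35 UMIs.

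Il10ra, which encodes the chain that binds IL-10, showed no difference between libraries whose interval left out 0 in any of the 13 finest groups. In C1q macrophages it stood at 46.6 CPM (43.8 to 49.5; 1045 UMIs) without treatment and 47.9 CPM (45.2 to 50.7; 1172 UMIs) with NAM, a log2 ratio of 0.04 (-0.08 to 0.16). The share of positive macrophages was 35.4% and 36.6%, and a positive cell held 1.41 and 1.39 UMIs on average. In Ly6c2 monocytes the level was 53.7 and 66.7 CPM (59 and 75 UMIs), or 0.31 on the log2 scale (-0.20 to 0.83). That interval includes 0 and also differences above 1.5-fold. Thinning to 3000 UMIs per cell gave a log2 ratio of 0.22 (0.03 to 0.41) over all cells, an interval that leaves out 0, and 0.22 (-0.005 to 0.44) in C1q macrophages, one that does not.

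Across all groups Il10ra followed another order than Il10, although the C1q subsets ranked alike in CPM for both genes. Cd209a dendritic cells, which held no Il10 UMI, had the highest Il10ra level, from 21 and 25 UMIs. It was 70.0 CPM (43.3 to 107) and 77.9 CPM (50.4 to 115) in the untreated and NAM library. These intervals overlapped those of Ly6c2 monocytes at 53.7 CPM (40.8 to 69.2) and 66.7 CPM (52.5 to 83.6). They also overlapped those of the Vcam1/Dnase1l3 macrophages at 57.1 CPM (51.2 to 63.4) and 59.1 CPM (53.2 to 65.5), and of the other C1q macrophages. The other C1q macrophages were lower than the Vcam1/Dnase1l3 subset in both libraries, at 46.9 CPM (43.0 to 51.0) and 48.6 CPM (45.0 to 52.4). Cycling macrophages were lower still in CPM, at 32.7 CPM (27.8 to 38.3) and 30.3 CPM (25.4 to 35.8). Cycling cells were deeper, with medians of 15029 and 14517.5 UMIs against 9042 and 9270.5 in the other C1q macrophages. Their share with an Il10ra UMI was 35.4% and 32.1%, against 33.6% and 34.8%. After thinning it was 9.32% and 9.93%, against 13.6% and 14.8%. CD8 T cells had 16.1 CPM (6.93 to 31.6) and 7.68 CPM (2.82 to 16.7), and NK cells 5 and 2 UMIs.

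Il10rb, the shared accessory chain, was level between libraries in C1q macrophages. It stood at 175 CPM in both (169 to 180 and 170 to 180; 3922 and 4288 UMIs), or 0.002 (-0.06 to 0.07) on the log2 scale, and 79.0% and 77.7% of the cells were positive. On UMIs thinned to 3000 per cell the log2 ratio was -0.14 (-0.26 to -0.02). In the deepest bin of macrophages the share was 91.9% (89.2 to 94.1) without treatment and 87.0% (83.9 to 89.6) with NAM, intervals that overlap. From the shallowest bin on, the other bins had 61.7% and 62.9%, 78.0% and 77.8%, and 84.5% and 83.3%.

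Il10rb was lower with NAM in Ly6c2 monocytes, at 259 CPM (230 to 291; 285 UMIs) and 199 CPM (174 to 227; 224 UMIs), a log2 ratio of -0.38 (-0.64 to -0.12), short of 1.5-fold. Thinned to 3000 UMIs per cell it was -0.42 (-0.78 to -0.06), and with the gate drawn anew on those UMIs -0.30 (-0.67 to 0.06), an interval that includes 0. Of the 3 genes with 100 or more UMIs in that gate (all but Il10), none was 1.5-fold or more lower or higher, against 6.06% and 3.41% of 2608 genes. In NK cells Il10rb was higher with NAM, at 67.4 CPM (44.4 to 98.0, from 27 UMIs in 66 cells) and 139 CPM (89.0 to 207, from 24 UMIs in 34 cells), a log2 ratio of 1.04 (0.19 to 1.89). The share of Il10rb-positive NK cells gave 0.30 (-0.77 to 1.34), and 0.51 (-0.76 to 1.73) after thinning, both of which include 0. The Vcam1/Dnase1l3 macrophages had 168 and 190 CPM, a log2 ratio of 0.18 (0.06 to 0.30), and the other C1q macrophages 191 and 178 CPM, a log2 ratio of -0.10 (-0.19 to -0.02). For the share of positive cells the intervals included 0 in both, at -0.01 (-0.28 to 0.26) and -0.12 (-0.29 to 0.05) after thinning. The amount per positive cell then had log2 ratios of -0.01 and -0.06. Monocytes had the highest level of the 13 groups in both libraries, without treatment above the C1q subsets by intervals that did not overlap, and with NAM with an interval that overlapped those of the Vcam1/Dnase1l3 and the other C1q macrophages. Dendritic and T cells were lower, at 58.0 to 64.9 CPM and 78.3 to 90.7 CPM.

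Socs3, the feedback inhibitor, was not lower with NAM in C1q macrophages, unlike Il10. In C1q macrophages it stood at 378 CPM (370 to 386; 8478 UMIs) without treatment and 404 CPM (396 to 412; 9902 UMIs) with NAM, a log2 ratio of 0.10 (0.06 to 0.14), which became 0.03 (-0.04 to 0.11) when each cell was thinned to 3000 UMIs and -0.015 (-0.09 to 0.06) when the gate was drawn anew on the thinned UMIs as well. The share of positive cells was 82.6% and 86.4%, and 59.0% and 62.1% after thinning. In the shallowest bin of macrophages the level was 445 CPM (420 to 470) and 423 CPM (401 to 447), intervals that overlap, and in the deepest 286 CPM (276 to 297) and 341 CPM (329 to 353), which do not. The share of positive cells went from 73.6% and 75.8% in the shallowest of the 4 bins to 84.7% (81.4 to 87.7) and 91.2% (88.6 to 93.4) in the deepest, and the value with NAM was the larger in each, with intervals that overlapped in all but the deepest.

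In Ly6c2 monocytes Socs3 was lower with NAM, at 515 CPM (473 to 559; 566 UMIs) and 426 CPM (389 to 466; 479 UMIs), a log2 ratio of -0.27 (-0.45 to -0.10). On thinned UMIs of the same cells it was -0.28 (-0.53 to -0.03). The interval came to include 0, with the sign kept, when cells were both gated and counted on 3000 UMIs each, at -0.13 (-0.39 to 0.14), with a C1q threshold of 5 UMIs, at -0.12 (-0.31 to 0.08), and when the 5 monocytes richest in Socs3 were dropped per library, at -0.19 (-0.38 to 0.003). Monocytes with more than 10 Socs3 UMIs numbered 9 of 173 and 1 of 198, and held 24.2% and 2.51% of its UMIs there. Cycling macrophages went the other way, at 287 CPM (272 to 303) and 352 CPM (335 to 369), a log2 ratio of 0.29 (0.19 to 0.40). The share of Socs3-positive cycling cells gave 0.10 (-0.15 to 0.35), and 0.28 (-0.04 to 0.60) after thinning, both of which include 0. The log2 ratio of the amount per positive cell was 0.16, and -0.10 after thinning. The other C1q macrophages stood at 379 CPM (368 to 391) and 397 CPM (386 to 408), a log2 ratio of 0.07 (0.01 to 0.12). The Vcam1/Dnase1l3 subset, the C1q subset in which Il10 differed most, had 448 CPM (431 to 465) and 459 CPM (443 to 476) of Socs3, a log2 ratio of 0.04 (-0.04 to 0.11).

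Xcr1/Clec9a dendritic cells had the lowest Socs3 level, at 24.6 CPM (11.8 to 45.2) and 45.5 CPM (27.4 to 71.1), from 10 and 19 UMIs, and with NAM that interval overlapped those of Foxp3/Ikzf2 T cells and Ccr7/Fscn1 dendritic cells. Cd209a dendritic cells stood at 293 CPM (235 to 361) and 237 CPM (187 to 296), and the T and NK gates between 92.7 and 122 CPM. In T cells Il10rb and Socs3 reached 100 UMIs, and 0 of these 2 genes were 1.5-fold or more higher or lower, against 2.46% and 4.28% of 3294 genes. Without treatment monocytes ranked highest, above the Vcam1/Dnase1l3 macrophages by intervals that did not overlap. With NAM the Vcam1/Dnase1l3 macrophages ranked highest, and their interval overlapped that of the monocytes.

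Within C1q macrophages of a library, cells with an Il10 UMI were set against those without, leaving Il10 out of the totals. Positive cells were somewhat deeper, with medians of 10395 and 9654 UMIs without treatment and 10409 and 9806.5 with NAM. Cells still positive after thinning were the shallower ones before it, with medians of 9543.5 and 9951 UMIs and of 9254.5 and 9917. Il10ra was lower in positive cells of the untreated library, at 35.8 CPM (31.2 to 40.9) and 50.6 CPM (47.2 to 54.2), a log2 ratio of -0.50 (-0.72 to -0.28), and level in the NAM library, at 48.3 and 47.8 CPM, a log2 ratio of 0.02 (-0.24 to 0.26). After thinning the Il10ra values were -0.41 (-0.98 to 0.11) and 0.09 (-0.57 to 0.69), neither of which left out 0. Il10rb was close in both, with log2 ratios of -0.005 (-0.11 to 0.10) and 0.02 (-0.11 to 0.15). Socs3 was higher in positive cells of both libraries, with log2 ratios of 0.18 (0.11 to 0.25) and 0.09 (0.01 to 0.18), and 0.22 (0.07 to 0.37) and 0.32 (0.11 to 0.52) after thinning.

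Some inflammatory mediators were also higher in cells with Il10. Of the 16 measured cytokine and mediator genes that IL-10 is known to lower, 4 were 1.5-fold or more higher in positive cells of both libraries, against 0.263% of 8740 genes, and 0 were lower, against 0.423%. On raw UMIs none of the genes measured in the other lists passed in both libraries in either direction. Receptor signaling gave 0 of 14, regulators of Il10 0 of 19 and genes that IL-10 raises 0 of 20. Other inducers of Socs3 gave 0 of 12, and immediate early and heat shock genes 0 of 20. After thinning Jak2 (0.59 and 0.71) passed as higher in both libraries. Jun (-0.91 and -0.99), Hspa1a (-0.62 and -0.61), Pias3 (-1.28 and -0.84) and Lepr (-2.79, and no UMI in positive cells with NAM) then passed as lower. The share of all genes that passed after thinning was not counted. The 4 higher mediator genes were Cxcl1 (log2 ratios of 1.28 and 0.85), Il1a (1.30 and 0.66), Cxcl2 (0.95 and 0.62) and Ptgs2 (0.93 and 0.71). They encode neutrophil chemokines, interleukin-1 alpha and cyclooxygenase-2. Among the genes higher in positive cells, the 10 with the largest difference in both libraries were Dqx1, Gm15726, Gpr84, Tnfsf9, Mir155hg, Olr1, Cxcl1, Cxcl3, Cxcl13 and Gm15247. The values for Il1a on thinned UMIs were 1.56 and 0.44, that of Dqx1 in the untreated library was -0.18, and that of Olr1 in the NAM library was 0.21 (1.43 before thinning).

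Other genes of the pathway were then counted in C1q macrophages against the same 1.5-fold backgrounds (1.11% higher, 3.97% lower). Of the 11 IL-10 family ligands and partners of Il10rb in the tables none reached 100 UMIs: Il20rb had 5 and 7 UMIs over all cells, Il22 0 and 1, and Il20, Il24, Il20ra and Il22ra1 none. Of 15 receptor signaling genes 1 was higher and 1 lower, with a median of -0.02. Socs1, an inhibitor of JAK kinases induced by interferons, was higher, from 38.5 to 72.1 CPM and 0.91 (0.79 to 1.02). Jak2, a kinase of interferon and growth factor receptors, was lower, from 18.8 to 10.7 CPM and -0.81 (-1.03 to -0.58). Stat3 itself was level at 64.5 and 62.5 CPM, -0.05 (-0.15 to 0.06), while Pias1 stood at 0.11 and Stat5a at -0.51.

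Of 20 measured regulators of Il10 transcription 1 was 1.5-fold higher and 2 lower, with a median of 0.03. Maf, which activates Il10 in macrophages, was lower, from 142 to 86.2 CPM and -0.72 (-0.80 to -0.64). Nfkb1, which encodes the p50 subunit of NF-kB, was also lower, from 125 to 79.4 CPM and -0.65 (-0.73 to -0.57). Nfil3 was higher, from 42.4 to 68.1 CPM and 0.68 (0.57 to 0.80), and Prdm1 stood at 0.29. In Ly6c2 monocytes 1 of 13 measured was higher, Nfil3 (1.01), and 1 lower, Nfkb1 (-1.71), against 3.41% and 6.06% of all genes of that gate.

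Genes known to answer to IL-10 moved in both directions. Some genes stand in more than 1 list, among them Nfil3, also a regulator of Il10, and Csf3, also an inducer of Socs3. Of 21 measured genes that IL-10 raises in macrophages 2 were higher and 3 lower, with a median of 0.09: Il1r2, a decoy receptor for interleukin-1, was at 1.07 and Nfil3 at 0.68, whereas the scavenger receptor Cd163 was at -0.97, Etv3 at -0.77 and the mannose receptor Mrc1 at -0.59. Of 19 measured genes that IL-10 lowers 2 were higher and 2 lower, with a median of -0.12. Nos2, the inducible nitric oxide synthase, had 45 UMIs without treatment and 163 with NAM, 1.73 (1.25 to 2.24) on the log2 scale. Il12b, the p40 subunit of interleukin-12, had 47 and 140, 1.45 (0.96 to 1.96). The neutrophil chemokine Cxcl1 was lower, from 719 to 328 CPM and -1.13 (-1.17 to -1.09), and Csf3 was at -0.95.

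In Ly6c2 monocytes 4 of 14 measured genes that IL-10 lowers were 1.5-fold or more lower with NAM and 1 was higher, against 6.06% and 3.41% of all genes of that gate, with a median of -0.41 against -0.01. Il1a was at -1.79, Ccl3 at -1.33, Cxcl1 at -1.29 and Ptgs2 at -0.73, and the T cell chemokine Ccl5 was at 1.02. Against the same shares of all genes, 3 of the 18 measured genes that IL-10 raises were lower there, Etv3 (-1.52), Il1rn (-0.84) and Mrc1 (-0.67), and 2 higher, Ddit4 (1.06) and Nfil3 (1.01).

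**Figure D5:**
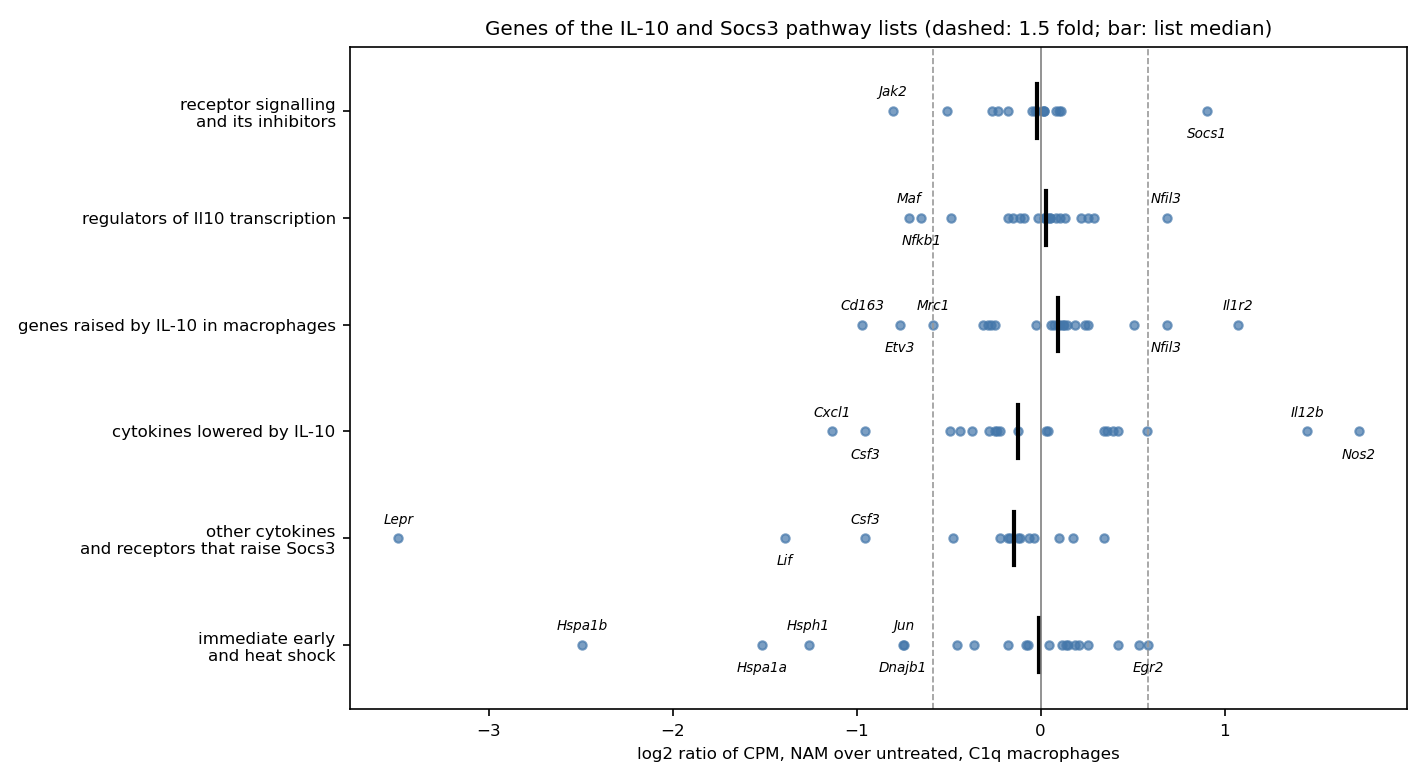
Log2 ratio of CPM, NAM over untreated, in C1q macrophages (x axis) for genes of 6 pathway lists (y axis), each point a gene with 100 or more UMIs; bars mark list medians, dashed lines 1.5-fold, and genes beyond them are named. List medians lie between -0.15 and 0.09, with single genes such as Lepr (-3.49), Nos2 (1.73) and Socs1 (0.91) far from them.

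Of 14 measured cytokines and receptors that induce Socs3 by other routes 0 were 1.5-fold higher in C1q macrophages and 3 lower, with a median of -0.15. Lepr, the leptin receptor, went from 1526 to 148 UMIs, a log2 ratio of -3.49 (-3.75 to -3.25), Lif from 96 to 40 UMIs, -1.39 (-1.96 to -0.84), and Csf3 from 94 to 53 UMIs. Il27 (0.34) and Ifngr2 (0.18) were the highest. Genes that answer to tissue dissociation and stress were followed as well. Of 20 immediate early and heat shock genes 1 was higher in C1q macrophages (Egr2, 0.59, with Egr1 at 0.53) and 5 lower, among them Hspa1a (-1.51) and Hspa1b (-2.49). In monocytes 2 of 16 measured were higher, Nr4a1 and Btg2 (both 0.62), and 0 lower, against 3.41% and 6.06% of all genes there. Their part in the Il10 and Socs3 values was not tested. Leaving out cells with 50 or more hemoglobin UMIs gave -1.52 for Il10 in C1q macrophages, and in Ly6c2 monocytes -1.63 for Il10, -0.37 for Il10rb and -0.26 for Socs3, each with an interval that left out 0. Leaving out shared barcodes gave -1.54 for Il10 in C1q macrophages.

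Genes whose level followed each of the 4 across cell groups were sought with Pearson's r of log2(CPM + 10) over 24 points, each a group of at least 20 cells in a library, and 9433 genes. The points share libraries and depth, so r is a description. The closest to Il10 were Nr1h3 (r = 0.861), Abcc5 (0.850), Tom1 (0.846), Ethe1 (0.838) and Hbegf (0.836). Each of these 5 differed less between libraries than Il10 in C1q macrophages, with log2 ratios from -0.84 for Hbegf, a growth factor of the EGF family, to -0.14 for Abcc5. The order depends on the pseudocount: with 1 CPM in place of 10, Nr1h3 ranked 6, Hbegf 47 and Cd300ld, named next, 50. The closest to Il10ra were Ctsh (0.928), Cd300ld (0.903) and Wfdc17 (0.899), to Il10rb Hgsnat (0.923), Flcn (0.897) and C3ar1 (0.891), and to Socs3 Ctsa (0.944), Zeb2os (0.933) and Clec4a1 (0.931).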

How the data were processed

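The authors dissociated tumors, prepared 10x Genomics 3′ v2 libraries and deposited raw UMI counts per gene and cell (build mm10, Cell Ranger). All 6198 deposited cells passed the stated filter of at least 3000 UMIs, 1000 genes and at most 10% mitochondrial UMIs. No doublet caller was run; cells with markers of both a macrophage and a lymphocyte gate were kept apart as mixed. The 4 genes, the gates and the gene lists were chosen with earlier results of these data known. Gates used raw UMIs (T cells: 2 or more of Cd3d, Cd3e and Cd3g; NK cells: Ncr1; dendritic cells: Xcr1 and Clec9a, Ccr7 and Fscn1, or Cd209a; monocytes: 3 or more Ly6c2). UMIs were summed per library and group and scaled to CPM, with exact Poisson intervals for levels, Clopper-Pearson intervals for shares and exact conditional binomial intervals for ratios. Genes with 100 or more UMIs in a gate were compared at 1.5-fold. A direction is given where the interval leaves out 0, and cells were not used as replicates. In each list, the 2 genes with the highest and the 2 with the lowest ratio were named, and others of the list where they help. The subsets of C1q macrophages were redefined after the data were seen, and a finer split and 1 list gene are not reported here. The ratio script was tested on simulated data. Python 3.11.15, NumPy 2.4.6, SciPy 1.17.1 and pandas 2.3.3 were used. Alternatives covered gate thresholds, scaling, thinning to 3000 UMIs per cell, cell weighting and left-out cells.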

Additional observations from a re-analysis of the deposited data

Results flagged for a closer look

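Il10rb and Socs3 differed between libraries in opposite directions in different cell groups, each with an interval that left out 0, and with 1 library per group the difference was not tested. Il10rb had a log2 ratio of -0.38 in Ly6c2 monocytes and 1.04 in NK cells, where the latter rests on 27 and 24 UMIs. Within C1q macrophages Il10rb had 0.18 in the Vcam1/Dnase1l3 subset and -0.10 in the other, non-cycling cells. On UMIs thinned to 3000 per cell the Vcam1/Dnase1l3 value did not stay above 0. The log2 ratio there was -0.01 for the share of positive cells and -0.01 for the amount per positive cell. Socs3 had 0.10 in C1q macrophages and -0.27 in Ly6c2 monocytes. On cells thinned to 3000 UMIs the Socs3 interval in C1q macrophages included 0, and with the gates drawn anew on thinned UMIs so did those of Il10rb and Socs3 in monocytes. The interval also included 0 for the difference in the share of Il10rb-positive cells in NK cells and in both macrophage subsets, thinned or not.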

How the results depend on the processing

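Il10 was lower with NAM under every alternative run: 7 over all cells (-1.66 to -1.47), 12 in C1q macrophages (-1.69 to -1.49) and 11 in Ly6c2 monocytes (-2.22 to -1.57). Of 192 alternatives over all results, 174 left the value within its interval (a count within 1.5 times, a correlation within 0.1), 17 moved it and 1 reversed it. Near 0 in C1q macrophages, Il10ra kept its sign in 11 of 12 and Il10rb in 6 of 12. Gating and counting on 3000 UMIs per cell gave, over all cells, -1.66 for Il10, 0.22 (0.03 to 0.41) for Il10ra, -0.14 (-0.25 to -0.04) for Il10rb and 0.0023 for Socs3, and in C1q macrophages -1.68, 0.20, -0.15 and, reversed, -0.015. Thinned levels with the gates left unchanged, an alternative chosen after seeing the data, gave -1.67, 0.22, -0.14 and, not reversed, 0.033 there; in Il10-positive against negative cells of the NAM library Socs3 came to 0.32. Weighting every cell equally gave -1.65 for Il10 over all cells, and in C1q macrophages -1.69 for Il10 and 0.053 for Socs3. A minimum of 20 UMIs raised the regulators of Il10 that were higher from 1 to 3, and the Socs3 inducers from 0 to 1. In monocytes Socs3 and Il10rb kept their sign under all 11 alternatives, but the interval included 0 under 3 for Socs3 and under 1 for Il10rb (gating and counting on thinned UMIs). In these cases the cause was not tested. No paired analysis was possible because each group has 1 library, and for the same reason no replicate could be left out. Depth limits groups under about 50 cells, in which a handful of UMIs sets the level.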
